A study of Mus musculus with 12 samples.

Results

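The chromatin of 10 imprinted genes was followed through reprogramming: Dlk1, Igf2, Igf2r, Peg3, Peg10, Mest, Plagl1, Grb10, Cdkn1c and Snrpn. The genes were given by name, and their chromatin was read from every counted region that overlaps the mm10 span of the gene or lies within 10 kb of either end. This gave 54 of 115000 regions, linked to 9 of the 10 genes. Of the genes with a counted region in the series, 18093 in all, these are 9. No counted region lies within 10 kb of Igf2, so it has no value. Of the 54 regions, 38 had enough reads to be tested.

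The assay was ATAC-seq, in which a transposase cuts and tags open DNA, so reads pile up where chromatin is accessible. Mouse embryonic fibroblasts (MEF) were unsorted, whereas Stage 1 cells (day 6), Stage 2 cells (4 further days) and established induced pluripotent stem cells (iPSC) were sorted as Oct4-GFP+, each in 3 libraries from a mixed C57BL/6 and 129 background. The labels name the protocol 3c enhanced reprogramming, and its agents and factors are not named there. In bulk samples, fewer cells with an open site and a less open site in every cell cannot be told apart, and sorting differs between MEF and all later groups.

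Imprinted genes are expressed mainly from the copy inherited from one parent. The choice is set by DNA methylation laid down in the egg or sperm at control regions, and it is kept through the methylation wave of the early embryo by factors such as Zfp57 and Trim28. Loss of imprints, at the Dlk1 cluster above all, is a known hazard of reprogramming in mouse cells. The deposited files give 1 count per region for both parental copies together, so nothing below separates the alleles or measures methylation.

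Promoter sequence is shown for the 5 members in which a counted region covers a listed transcript start, so that the values at these promoters can be read beside their CpG content. The bases run from upstream towards the start, on the strand of the gene, from RefSeq (GRCm38.p6, the assembly of mm10). Capitals mark each CpG, the dinucleotide at which imprints are written.
Grb10: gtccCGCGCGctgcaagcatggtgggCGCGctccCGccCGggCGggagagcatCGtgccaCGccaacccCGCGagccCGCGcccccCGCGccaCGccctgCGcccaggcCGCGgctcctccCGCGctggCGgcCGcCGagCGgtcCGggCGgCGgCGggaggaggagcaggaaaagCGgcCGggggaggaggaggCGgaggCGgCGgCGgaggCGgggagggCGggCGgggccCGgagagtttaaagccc
Igf2r: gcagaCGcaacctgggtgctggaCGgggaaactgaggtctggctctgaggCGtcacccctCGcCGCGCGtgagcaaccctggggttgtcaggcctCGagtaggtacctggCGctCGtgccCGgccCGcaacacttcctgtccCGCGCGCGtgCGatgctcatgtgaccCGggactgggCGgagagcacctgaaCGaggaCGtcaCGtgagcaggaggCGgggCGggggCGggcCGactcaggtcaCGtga
Plagl1: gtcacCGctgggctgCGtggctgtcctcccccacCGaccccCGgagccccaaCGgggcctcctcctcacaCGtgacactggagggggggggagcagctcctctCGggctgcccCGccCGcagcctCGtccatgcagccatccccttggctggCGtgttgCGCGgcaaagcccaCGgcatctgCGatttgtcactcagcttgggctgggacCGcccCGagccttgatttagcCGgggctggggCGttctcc
Mest: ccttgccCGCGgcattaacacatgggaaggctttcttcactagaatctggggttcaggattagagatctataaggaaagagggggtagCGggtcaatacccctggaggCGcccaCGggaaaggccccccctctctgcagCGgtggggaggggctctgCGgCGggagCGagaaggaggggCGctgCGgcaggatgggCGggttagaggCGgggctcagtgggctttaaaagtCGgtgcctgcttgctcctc
Peg3: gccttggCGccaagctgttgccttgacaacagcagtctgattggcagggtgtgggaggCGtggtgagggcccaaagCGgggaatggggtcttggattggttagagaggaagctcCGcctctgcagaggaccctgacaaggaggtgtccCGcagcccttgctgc

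The stretches lie at chr11:12037421-12037670 for Grb10, chr17:12769707-12769956 for Igf2r, chr10:13090582-13090831 for Plagl1, chr6:30737800-30738049 for Mest and chr7:6730420-6730582 for Peg3. Grb10, Igf2r and Peg3 are on the minus strand and the other two on the plus strand. For Peg3 the 163 bases between its start and that of Usp29, which is transcribed the other way, are shown. In the 250 bases before each start, Grb10 held 40 CpG, Igf2r 27, Plagl1 19, Mest 14 and Peg3 8, against a median of 6 over 32851 promoters of the same length. TGCCGC, the core of the Zfp57 motif, searched on both strands, was found 242 and 67 bases before the Mest start and 90 bases before the Plagl1 start. It was found in 8.68% of all promoters of this length and in none of the other 3.

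Depth and scale bear on every value. The libraries held from 14310290 to 32229388 reads, of which 16.7% ± 5.37 (SD, n = 3) fell in regions in MEF and, over the later groups in order, 7.64% ± 0.415, 6.03% ± 0.813 and 4.94% ± 0.395. Levels are CPM after TMM adjustment. For regions the count is scaled to the reads in regions of the library. For genes it is scaled to the counts summed over all genes, where a region counts for each gene it is linked to. The background level is the CPM that the read density outside all regions would place in the same length of DNA. It made up 8.92% to 19.8% of the reads in regions in MEF libraries, between 28.6% and 31.8% in Stage 1 libraries, between 34.1% and 45.1% in Stage 2 libraries and between 45.7% and 53.8% in iPSC libraries. Scaled to all reads of a library instead, the median log2 fold change of all tested genes moved from 0.01 to -0.96 for Stage 1 against MEF and from -0.03 to -1.70 for iPSC against MEF, so each direction below is relative to the median gene or region. Genes and regions were scaled separately, so the region values of a gene do not add up to its gene value, and region folds against MEF lie lower: with the factors of the genes, the median region moved from 0.03 to 0.27 for Stage 1 against MEF and from 0.01 to 0.29 for iPSC against MEF.

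Marker genes followed the labels. All 10 pluripotency markers rose and all 10 fibroblast markers fell between MEF and Stage 1. Summed over the fibroblast list, CPM ran from 892 to 939 in MEF libraries and from 327 to 384 in Stage 1 libraries, where the background level was 200. For iPSC against Stage 2, 0 pluripotency markers rose and 3 fell, and 2 fibroblast markers rose and 0 fell. In that comparison 4.92% of all tested genes rose and 4.43% fell. The pluripotency sum ran from 1324 to 1412 CPM in Stage 2 and from 1060 to 1214 in iPSC, with background at 237 and 301. The fibroblast sum ran from 356 to 418 CPM and from 405 to 484, with background at 266 and 338. Of 6 blood cell markers, 5 had a region, and these summed to 160 to 167 CPM in MEF and 198 to 216 in Stage 1. Their background was 27.7 CPM in MEF and 55.2 in Stage 1, so part of that difference is background. The 6 endothelial markers summed to 264 to 274 CPM in MEF and 146 to 172 in Stage 1, with background at 43.6 and 87.0. The part of any of these shifts in the values of the imprinted genes was not tested.

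Between MEF and Stage 1, regions of Plagl1, Snrpn, Cdkn1c and Peg10 gained reads and those of Igf2r and Dlk1 lost them, while the sums for Peg3, Mest and Grb10 did not pass the test. Of the 9 tested genes 4 rose and 2 fell, and 64.8% of all 17544 tested genes passed in either direction (33.1% higher, 31.6% lower). Their median log2 fold change was 0.14, against 0.01 for all tested genes. Under whole-library scaling the 9 genes gave 0 rises and 5 falls. Among the regions 14 rose, 8 fell and 16 did neither, and 80.5% of the 71069 tested regions of the series passed (40.2% higher, 40.3% lower). The share that passed was thus 57.9% for the imprinted regions. The median region log2 fold change was 0.29, against 0.03 for all tested regions.

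**Figure D1:**
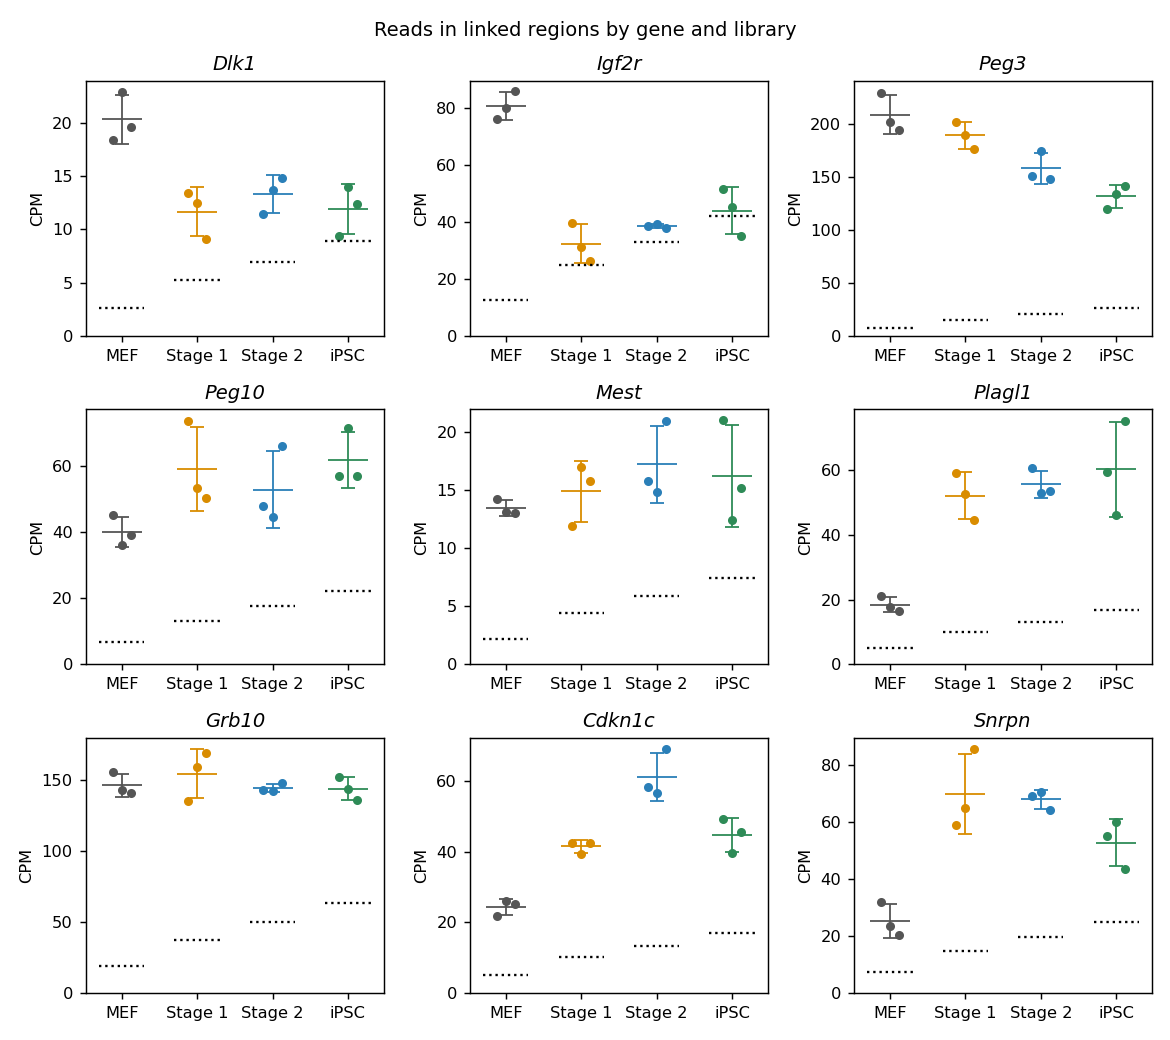
Reads in the linked regions of each of the 9 genes, in CPM on a linear axis from 0, by group. Points are libraries, wide bars with error bars are the mean and SD of 3 libraries, and dotted lines are the mean background level. Igf2r falls from 80.6 CPM in MEF to values near the dotted line, Plagl1 and Snrpn rise at Stage 1 relative to the median gene (under whole-library scaling neither rise passes), and Grb10 stays level.

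Cdkn1c encodes the cyclin-dependent kinase inhibitor p57, a maternally expressed brake on the cell cycle. Its 5 regions held 21.8, 26.1 and 25.3 CPM in MEF, 42.5, 39.3 and 42.5 in Stage 1, 58.2, 56.5 and 69.0 in Stage 2 and 49.2, 39.7 and 45.6 in iPSC. The level thus peaked in Stage 2, and the Stage 2 libraries lay above those of every other group. The log2 fold change was 0.78 ± 0.16 (SE, adjusted p = 1.07e-05) for Stage 1 against MEF, which whole-library scaling turned to -0.18, and 0.55 ± 0.15 (adjusted p = 0.00767) for Stage 2 against Stage 1. It was -0.44 for iPSC against Stage 2, which missed the threshold (adjusted p = 0.0546), and 0.89 for iPSC against MEF (adjusted p = 9.86e-07; whole-library -0.77). Background accounted for part of the totals, 5.07 CPM in MEF and 17.0 in iPSC, and the level above it was 19.3, 31.3, 47.8 and 27.8 CPM over the 4 groups in order. Without Stage 2 replicate 3, the difference between Stage 2 and Stage 1 missed the threshold (adjusted p = 0.0666). It also did not pass under whole-library scaling or with regions of no other gene. With the single region in the gene span it was lost too (adjusted p = 0.167), as was the difference between Stage 1 and MEF (adjusted p = 0.0567).

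The one Cdkn1c region that passed between Stage 1 and Stage 2 lies outside the gene. Region 4, at chr7:143467601-143468100, lies above the span on the side of Slc22a18 and had 0.594, 1.13 and 3.21 CPM in MEF, 0.00, 2.61 and 4.27 in Stage 1, 10.5, 10.8 and 12.1 in Stage 2 and 6.40, 6.03 and 6.36 in iPSC. It stood near the background of 2.10 CPM in Stage 1 and rose by 2.16 ± 0.48 (log2, SE, adjusted p = 0.00081) in Stage 2, without overlap. It belongs to the peak list of Stage 2 only, so a higher level in Stage 2 is partly built into its choice. Region 5, at chr7:143469851-143470350, rose from 4.19 to 8.40 CPM in Stage 1 (0.94, adjusted p = 0.0136), with libraries that overlap, and held 4.89 CPM in iPSC. This rise was lost without MEF replicate 1 (adjusted p = 0.0512) and under whole-library scaling (0.23). Region 5 is in the peak lists of Stage 1 and Stage 2 only, so its rise too is partly built into its choice. The region at the gene itself, with the highest mean of the 5, held 12.9, 15.7, 21.7 and 16.8 CPM over the 4 groups in order and passed in no comparison. Slc22a18, which shares 4 of the 5 regions, is an organic cation transporter gene of the same imprinted cluster and rose from 25.5 CPM in MEF to 67.4 in Stage 1 and 94.2 in Stage 2; neither step passed under whole-library scaling.

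Plagl1 encodes a zinc finger transcription factor expressed from the paternal copy that is known to act on other imprinted genes. Its 5 regions, none shared with another gene, held 21.1, 17.6 and 16.5 CPM in MEF and 58.9, 52.6 and 44.4 in Stage 1. Means were 55.6 ± 4.17 CPM (SD, n = 3) in Stage 2 and 60.1 ± 14.6 in iPSC. All later libraries lay above all MEF libraries. The log2 fold change was 1.46 ± 0.16 (SE, adjusted p = 8.51e-13) for Stage 1 against MEF and 1.66 (adjusted p = 4.4e-15) for iPSC against MEF, and neither later step passed. Relative to all reads of a library, the first was 0.49 and did not pass and the second was -0.02, while the level above background rose from 13.4 CPM in MEF to 42.1 in Stage 1 and 43.4 in iPSC.

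The Plagl1 regions that rose lie inside the gene, and its promoter region did not pass. Region 4, 17.3 kb into the gene at chr10:13107751-13108450, held 2.58, 1.59 and 2.81 CPM in MEF, near the background of 1.73, and 32.5, 27.8 and 20.7 in Stage 1. It rose by 3.52 ± 0.29 (log2, SE, adjusted p = 1.07e-19) and then held 26.5 CPM in Stage 2 and 26.2 in iPSC. Region 5, 36.7 kb into the gene, came last: its means were 0.985, 2.94 and 3.95 CPM over the first 3 groups, and its iPSC libraries held 10.7, 7.53 and 11.8 CPM, above all others. It rose by 3.23 for iPSC against MEF (adjusted p = 1.85e-09), and the 1.29 for iPSC against Stage 2 missed the threshold (adjusted p = 0.099). The smaller difference of region 5 in Stage 1 (adjusted p = 0.0471) rested on single libraries and was lost without Stage 1 replicate 2 (adjusted p = 0.562), MEF replicate 1 or MEF replicate 3. The promoter region, which holds the sequence shown above, had 14.7, 13.1, 14.0 and 13.8 CPM over the groups and passed nowhere. It is in all 4 peak lists, whereas regions 4 and 5 are not in that of MEF, and region 5 is in that of iPSC alone. The low level of regions 4 and 5 in MEF and the late rise of region 5 are therefore partly built into their choice.

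Snrpn encodes a small nuclear ribonucleoprotein subunit and starts in the control region of the paternally expressed Prader-Willi cluster. Its 5 regions held 32.0, 23.5 and 20.4 CPM in MEF and 58.9, 65.1 and 85.7 in Stage 1, with no overlap. Stage 2 held 68.0 ± 3.39 CPM and iPSC 52.8 ± 8.31. The log2 fold change was 1.44 ± 0.15 (SE, adjusted p = 4.16e-14) in Stage 1 and 1.03 (adjusted p = 4.22e-08) for iPSC against MEF, which whole-library scaling turned to -0.66. From Stage 2 to iPSC the change was -0.35 (adjusted p = 0.14). Above background the level went from 17.9 CPM in MEF to 55.2, 48.4 and 28.0 over the later groups, so the excess in iPSC was closer to MEF than the total shows.

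Of the 5 Snrpn regions, 4 rose in Stage 1. Region 1, at chr7:60002851-60003500 and 2.02 kb past the start shared with Snurf, held 0.594, 1.13 and 1.2 CPM in MEF and 19.7, 15.6 and 22 in Stage 1. Its rise of 4.30 ± 0.38 (log2, SE, adjusted p = 2.7e-18) was the largest of the 38 tested imprinted regions, and its mean then stood at 13.8 CPM in Stage 2 and 9.29 in iPSC. Region 4, at chr7:60255501-60256050, held 0.551 CPM in MEF, below its background of 1.36, and rose by 3.60 (adjusted p = 1.83e-08) to 6.46 CPM in Stage 1 and stood at 11.2 CPM in Stage 2 and 7.99 in iPSC. Region 5 rose from 6.54 to 17.8 CPM (1.31, adjusted p = 2.1e-05; under whole-library scaling 0.56, adjusted p = 0.158), and its difference between iPSC and MEF (0.81, whole-library -0.61) was lost without MEF replicate 2 or 3 or iPSC replicate 1 or 2 (adjusted p up to 0.115). Region 2, 0.874 kb past the Snurf start, had 6.59 CPM in MEF and 11.1 in Stage 1 (adjusted p = 0.0145), a call lost without Stage 1 replicate 3 (adjusted p = 0.0858) or MEF replicate 2 and under whole-library scaling (0.07). Region 3, the one with the highest mean in MEF, did not move, with 15.1, 15.3, 16.7 and 12.8 CPM. Regions 1 and 4 are in later peak lists but not in that of MEF, so their low level in MEF is partly built into their choice. No counted region covered a listed Snrpn start.

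Peg10 is a paternally expressed gene derived from a retrotransposon and known for its role in the placenta. All 4 of its regions are also linked to Sgce, its neighbour. They held 45.2, 36.2 and 39.3 CPM in MEF, 73.9, 53.5 and 50.4 in Stage 1, 47.9, 44.6 and 66.3 in Stage 2 and 57.2, 71.5 and 57 in iPSC. The log2 fold change was 0.55 ± 0.14 (SE, adjusted p = 0.000607) for Stage 1 against MEF, where all Stage 1 libraries lay above all MEF libraries but the call was lost without Stage 1 replicate 1 (adjusted p = 0.0514). It was 0.62 (adjusted p = 0.000144) for iPSC against MEF, and whole-library scaling turned the pair to -0.43 and -1.06. Above background the means were 33.6 CPM in MEF and 39.5 in iPSC, with libraries from 29.8 to 40.8 and from 32.2 to 50.6. Sgce as a whole, with 11 regions, passed in no comparison.

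Of the Peg10 regions, 1 passed the test. Region 1, at chr6:4738601-4739200 and outside the gene span, held 0.396, 1.13 and 1.61 CPM in MEF, at the background of 1.48, and 12.9, 7.82 and 10.4 in Stage 1. It rose by 3.41 ± 0.44 (log2, SE, adjusted p = 4.2e-11) and stood at 12.9 CPM in Stage 2 and 11.2 in iPSC. Region 1 is in the peak lists of the later groups but not in that of MEF, so its rise is partly built into its choice. The other 3 regions passed in no comparison: the one that overlaps the lower end of the gene held 10.3, 10.5, 10.2 and 13.5 CPM over the groups, and the one with the highest mean, region 4 inside the gene, held 19.2, 24.6, 20.4 and 21.6.

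Igf2r encodes the receptor that clears the growth factor IGF2 and is expressed from the maternal copy. Airn, a paternally expressed noncoding RNA that starts inside Igf2r and runs against it, silences Igf2r on the paternal copy. The 10 regions of Igf2r held 76.1, 79.9 and 85.7 CPM in MEF, 39.5, 31.2 and 26.1 in Stage 1, 38.6, 39.2 and 37.9 in Stage 2 and 51.4, 45.1 and 35.1 in iPSC. The drop in Stage 1 was without overlap, with a log2 fold change of -1.32 ± 0.14 (SE, adjusted p = 2.17e-13), and iPSC stayed at -0.85 (adjusted p = 7.69e-08) against MEF. The later levels were close to background, at 24.9 CPM in Stage 1, 33.0 in Stage 2 and 41.9 in iPSC, so that the level above it was 68.1 CPM in MEF and 7.43, 5.58 and 1.96 over the later groups.

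At Igf2r the promoter region and regions in the body passed in opposite directions in Stage 1. Region 10, at the start and with the highest mean over all libraries, held 6.54, 7.71 and 8.43 CPM in MEF and 14.4, 11.3 and 12.2 in Stage 1, a rise of 0.76 ± 0.29 (log2, SE, adjusted p = 0.0118) without overlap, and stood at 11.3 CPM in Stage 2 and 11.1 in iPSC (0.59 against MEF, adjusted p = 0.0631). The rise in Stage 1 was 0.05 (adjusted p = 0.907) under whole-library scaling and missed the threshold in thinned libraries (adjusted p = 0.0604). Region 5, the highest in MEF, lies 31.4 kb into the gene at chr17:12737801-12738750 and held 15.6, 14.3 and 19.7 CPM in MEF and 3.02, 0.869 and 0.61 in Stage 1. It fell by 3.42 on the log2 scale (adjusted p = 2.7e-11), to below its background of 3.99 CPM, and had 5.92 CPM in iPSC against a background of 6.54. Region 3, 44.7 kb into the gene, fell by 2.33 in Stage 1 (adjusted p = 3.04e-06), and for iPSC against MEF its fall of 2.24 (adjusted p = 8.4e-06) was the largest of the gene. Region 7 covers the start of Airn: it had 13.3, 12.2 and 7.63 CPM in MEF and 6.05, 5.21 and 4.27 in Stage 1 (-1.16, adjusted p = 0.00213), a call lost without Stage 1 replicate 3 (adjusted p = 0.0568), and 4.15 CPM in iPSC against a background of 3.78. The other 6 regions were too low to be tested, and all 6 had a higher mean in MEF than in any later group. All regions of the gene but region 10, these 6 among them, are in the peak list of MEF alone. A higher level in MEF is therefore partly built into their choice.

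**Figure D2:**
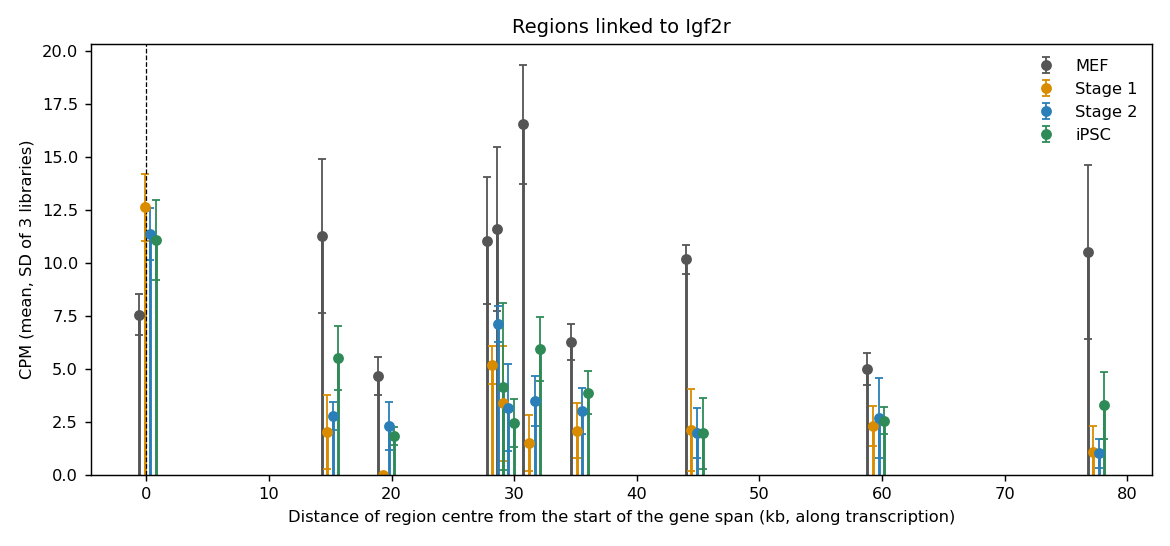
CPM in the 10 regions linked to Igf2r against the distance of the region centre from the gene start in kb, with the 4 groups set side by side at each position. Points and error bars are the mean and SD of 3 libraries. At the start the later groups stand above MEF (7.56 CPM against 12.6 in Stage 1, a rise relative to the median region), and at the 9 positions inside the gene MEF is the highest group. These 9 regions are in the peak list of MEF alone, so that order is partly built into their choice.

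Dlk1 encodes a paternally expressed membrane protein with EGF repeats that holds back adipocyte differentiation. Its 4 regions held 18.4, 22.9 and 19.7 CPM in MEF, 13.4, 12.5 and 9.11 in Stage 1, 11.4, 13.7 and 14.9 in Stage 2 and 9.41, 14.0 and 12.3 in iPSC. MEF was above all later groups without overlap, but all 4 regions are in the peak list of MEF alone, so this order is partly built into their choice. The log2 fold change was -0.82 ± 0.23 (SE, adjusted p = 0.00152) in Stage 1 and -0.78 (adjusted p = 0.0033) in iPSC, the latter lost without iPSC replicate 1 (adjusted p = 0.0612). Region 1, 7.31 kb before the gene at chr12:109444851-109445500, was the only one with enough reads to be tested. It fell from 15.4 CPM in MEF to 3.72 in Stage 1 (-2.07 ± 0.36, adjusted p = 1.85e-07) and had 2.87 in iPSC, below its background of 4.47. The region inside Dlk1, 0.841 kb from the start of the span, was level by its values, with 6.28, 5.48, 5.80 and 5.42 CPM, while its background rose from 1.11 to 3.10. Few reads stand behind these values: the 3 iPSC libraries together had 44 reads in the Dlk1 regions.

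Peg3 encodes a large paternally expressed zinc finger protein. Its 4 regions are all shared, 1 with Zim1 and 3 with Usp29. They held 229, 202 and 195 CPM in MEF, 201, 189 and 177 in Stage 1, 151, 175 and 148 in Stage 2 and 120, 134 and 141 in iPSC. The mean went down at each step, but no single step passed: the log2 fold changes were -0.15 (adjusted p = 0.126; with the factors of the regions -0.39, adjusted p = 9.24e-05), -0.25 (adjusted p = 0.0624) and -0.27 (adjusted p = 0.0874). From end to end, iPSC against MEF, the level fell by 0.67 on the log2 scale (adjusted p = 3.19e-09) without overlap. Above background the fall was wider, from 201 CPM in MEF to 106 in iPSC.

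Of the 4 regions of Peg3, 3 fell for iPSC against MEF, where 81.7% of all regions passed (40.8% lower). The promoter region did not pass. Region 2, 1900 bp at chr7:6727151-6729050 inside the gene, had the highest mean of the 4, with 163, 156 and 141 CPM in MEF, 108 ± 7.40 in Stage 1, 99.3 ± 14.6 in Stage 2 and 66.8, 79.1 and 67.2 in iPSC. It fell by 1.11 on the log2 scale for iPSC against MEF (adjusted p = 3.99e-12). Its difference in Stage 1 (-0.51, adjusted p = 0.000157) depended on the scaling: it was 0.00 with factors from all regions without a filter and -0.15 (adjusted p = 0.239) in a fit of MEF and Stage 1 alone. Region 1, 33.9 kb from the Peg3 start and over the start of Zim1, another imprinted zinc finger gene, fell from 45.8 CPM in MEF to 20.5 in iPSC (-1.19, adjusted p = 5.84e-08). Region 3, inside the gene, fell from 23.5 CPM in MEF to 15.2 in iPSC (-0.64, adjusted p = 0.0107). Its call was lost with the factors of the genes (-0.36, adjusted p = 0.154) and without a filter (adjusted p = 0.296). It was also lost with 2 groups only (adjusted p = 0.241), in thinned libraries (adjusted p = 0.162) and without iPSC replicate 1 (adjusted p = 0.200). The shared promoter of Peg3 and Usp29, shown above, held 22.5, 20.01, 17.2 and 20.9 CPM and passed nowhere.

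Grb10 encodes an adaptor that binds insulin and growth factor receptors and restrains growth, and it is maternally expressed in most tissues and paternally in neurons. Its 15 regions, all its own, summed to 155, 143 and 140 CPM in MEF, 135, 159 and 169 in Stage 1, 142, 142 and 147 in Stage 2 and 152, 143 and 136 in iPSC. The groups overlapped throughout. The log2 fold changes of 0.08 in Stage 1 (adjusted p = 0.466) and -0.03 in iPSC against MEF (adjusted p = 0.823) did not pass, although the second passed at -0.30 (adjusted p = 0.00376) with the factors of the regions. Above background the mean went from 127 CPM in MEF to 80.4 in iPSC.

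The level sum of Grb10 hid regions that moved in opposite directions. In Stage 1, 5 of its 10 tested regions rose and 3 fell, and for iPSC against MEF 6 rose and 3 fell, where 80.5% and 81.7% of all regions passed. Whole-library scaling ended the rises of regions 8, 9 and 12 in Stage 1 and of regions 3, 8, 9, 12 and 14 for iPSC against MEF, and the rise of region 8 in Stage 1 was also lost with DESeq2, in thinned libraries and without MEF replicate 2 or Stage 1 replicate 2 (adjusted p = 0.0886). Of the falls, that of region 5 was lost in Stage 1 without a filter (adjusted p = 0.114) or without Stage 1 replicate 1 (adjusted p = 0.0726). For iPSC against MEF the fall of region 5 was lost without a filter (adjusted p = 0.133) and with 2 groups only (adjusted p = 0.104). The factors of the genes (adjusted p = 0.0735) and leaving out iPSC replicate 2 or 3 ended it too. Region 1, 97.7 kb into the gene at chr11:11939401-11940100, had 50.9, 46.0 and 31.7 CPM in MEF and 3.78, 4.34 and 3.66 in Stage 1, a fall of 3.47 on the log2 scale (adjusted p = 8.74e-20), and stayed near 4.14 CPM in Stage 2 and iPSC, where the background was 3.93 and 4.82. Region 4, at chr11:11953151-11954150, fell from 38.4 to 6.18 CPM (-2.65, adjusted p = 2.27e-15). Between these 2 lie 2 regions that rose, so that rises stood between falls in the 3' part of the gene. Regions 1, 4 and 5 are in the peak list of MEF alone, and regions 2, 3 and 9 are in later lists but not in that of MEF. The opposite directions of these regions are therefore partly built into their choice.

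Region 3, at chr11:11948851-11949500, was highest in Stage 1. It held 3.57, 2.49 and 3.61 CPM in MEF, 32.5, 37.3 and 34.8 in Stage 1, 19.8, 12.6 and 14.8 in Stage 2 and 14.2, 11.3 and 7.26 in iPSC. It rose by 3.43 ± 0.26 (log2, SE, adjusted p = 2.65e-21) and then fell by 1.13 on the log2 scale in Stage 2 (adjusted p = 0.000376), both without overlap. Region 2, at chr11:11942451-11943050, rose by 2.17 (adjusted p = 6.96e-11) and kept its level, with 4.27, 19.6, 19.8 and 21.6 CPM. The promoter region of Grb10 held 21.1, 26.6, 29.6 and 28.8 CPM, and its difference between iPSC and MEF (0.43, adjusted p = 0.0369) was lost without MEF replicate 2 or 3 or iPSC replicate 1 or 2 (adjusted p up to 0.268) and with DESeq2, and turned to -0.98 under whole-library scaling.

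**Figure D3:**
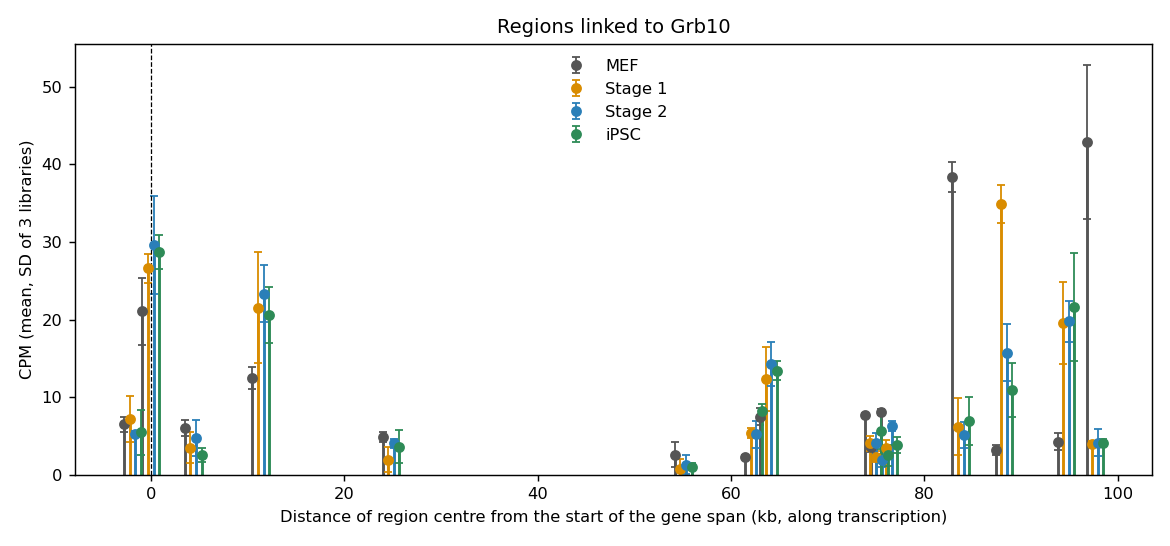
CPM in the 15 regions linked to Grb10 against the distance of the region centre from the gene start in kb, with the 4 groups set side by side at each position. Points and error bars are the mean and SD of 3 libraries. Beyond 80 kb, 2 regions are high in MEF only and 2 regions are high in the later groups, with 34.9 CPM in Stage 1 at the one that then declines. The first 2 are in the peak list of MEF alone and the other 2 in all lists but that of MEF. Their directions are therefore partly built into their choice.

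Mest encodes a paternally expressed protein of the alpha/beta hydrolase family. Its 2 regions held 14.2, 13.1 and 13 CPM in MEF, 11.9, 17.0 and 15.8 in Stage 1, 15.8, 14.9 and 21.0 in Stage 2 and 21.0, 12.4 and 15.2 in iPSC. The groups overlapped at each adjacent step and neither the gene nor a region passed. The log2 fold change was 0.14 in Stage 1 (adjusted p = 0.626) and 0.28 for iPSC against MEF (adjusted p = 0.307), -0.83 and -1.40 under whole-library scaling, and the level above background was 11.2, 10.5, 11.3 and 8.75 CPM. The promoter region, over the sequence shown above and also linked to Copg2, held 7.97, 6.26, 9.98 and 8.07 CPM.

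**Figure D4:**
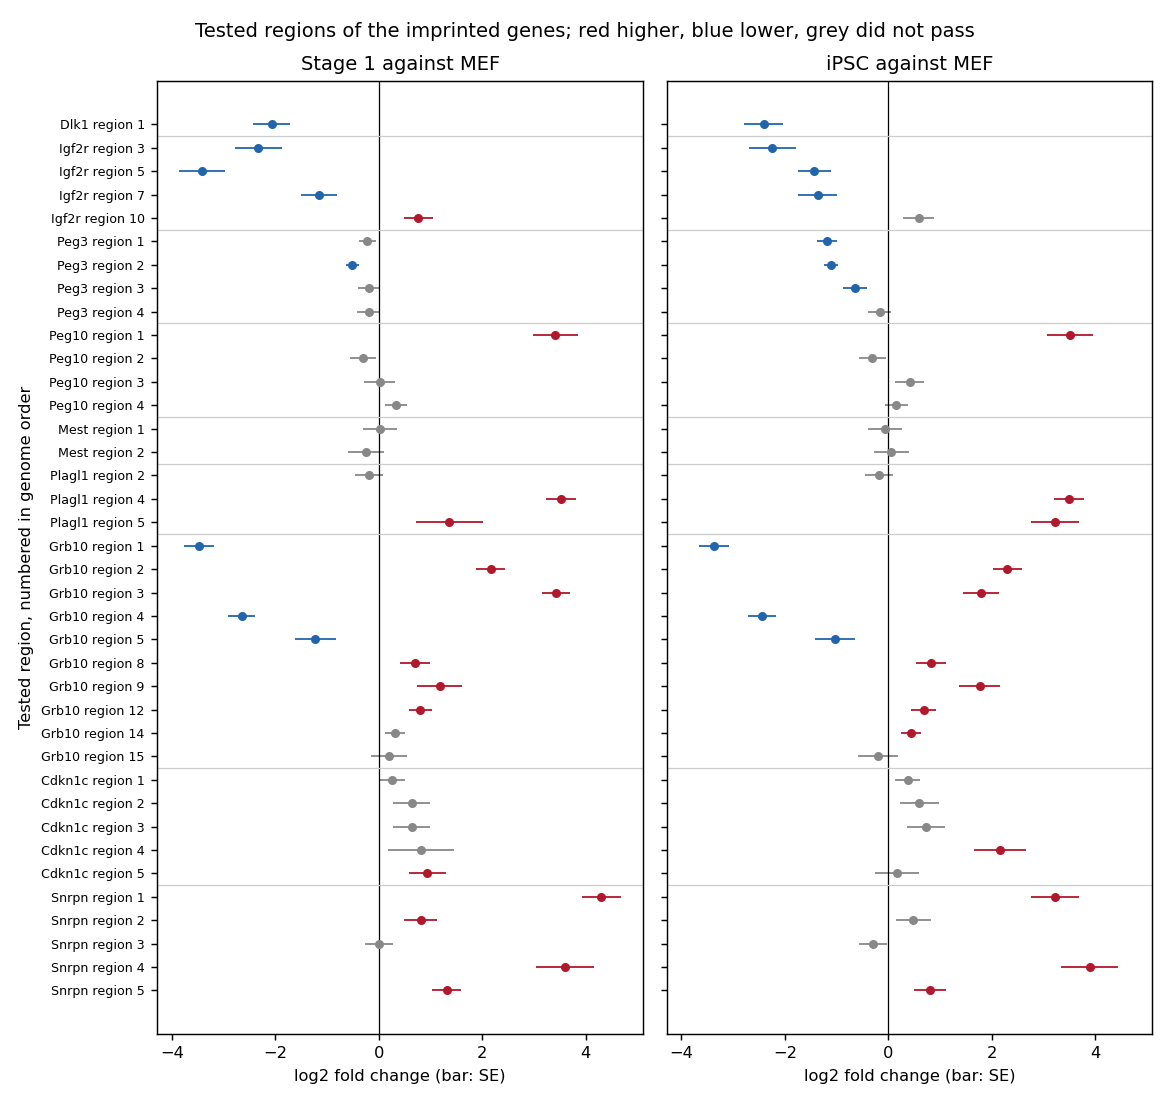
Log2 fold change with its SE of the 38 tested regions, by gene and in genome order, for Stage 1 against MEF and iPSC against MEF, relative to the median region. Red marks 14 and 13 regions that rose, blue 8 and 10 that fell, and grey those that did not pass; under whole-library scaling the counts are 6 and 15, and 6 and 23.

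Of the 5 regions over a listed start of a member, 1 rose (Igf2r) and 4 did neither in Stage 1, where 80.5% of all regions passed. Their log2 fold changes ran from -0.25 to 0.76. Of the 33 other tested regions 13 rose and 8 fell, with a range from -3.47 to 4.30. For iPSC against MEF, 1 promoter region rose (Grb10), and of the others 12 rose and 10 fell, where 81.7% of all regions passed. Neither promoter rise held under whole-library scaling. The share among all promoter regions of the series was not counted. Whether promoters and other regions differ was not tested.

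Between Stage 1 and Stage 2, and from Stage 2 to iPSC, little passed. Cdkn1c was the 1 gene of 9 that passed in Stage 2 against Stage 1, where 15.9% of all tested genes passed (7.73% higher, 8.19% lower), and 2 of 38 regions passed, region 4 of Cdkn1c and region 3 of Grb10, against 10.4% of all regions (6.14% higher, 4.3% lower). For iPSC against Stage 2 no gene of 9 passed in edgeR or DESeq2, where 9.35% of all genes did in edgeR (4.92% higher, 4.43% lower), and 3 genes had an unadjusted p under 0.05, namely Cdkn1c, Peg3 and Snrpn, each lower in iPSC by its fold. No region of 38 passed in either tool against 1.61% of all regions in edgeR (0.545% higher, 1.06% lower), and 4 had an unadjusted p under 0.05. The DESeq2 test gave an adjusted p there for 8020 of 17544 genes and 25599 of 71069 regions. Those without one could not pass in it. For iPSC against MEF 4 genes rose, 3 fell and 2 did neither, where 65.8% of all genes passed (32% higher, 33.7% lower); under whole-library scaling 0 rose and 8 fell. At the same end points 13 regions rose and 10 fell, where 81.7% of all regions passed (40.8% higher, 40.8% lower). The comparisons share libraries and are not independent of each other.

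**Figure D5:**
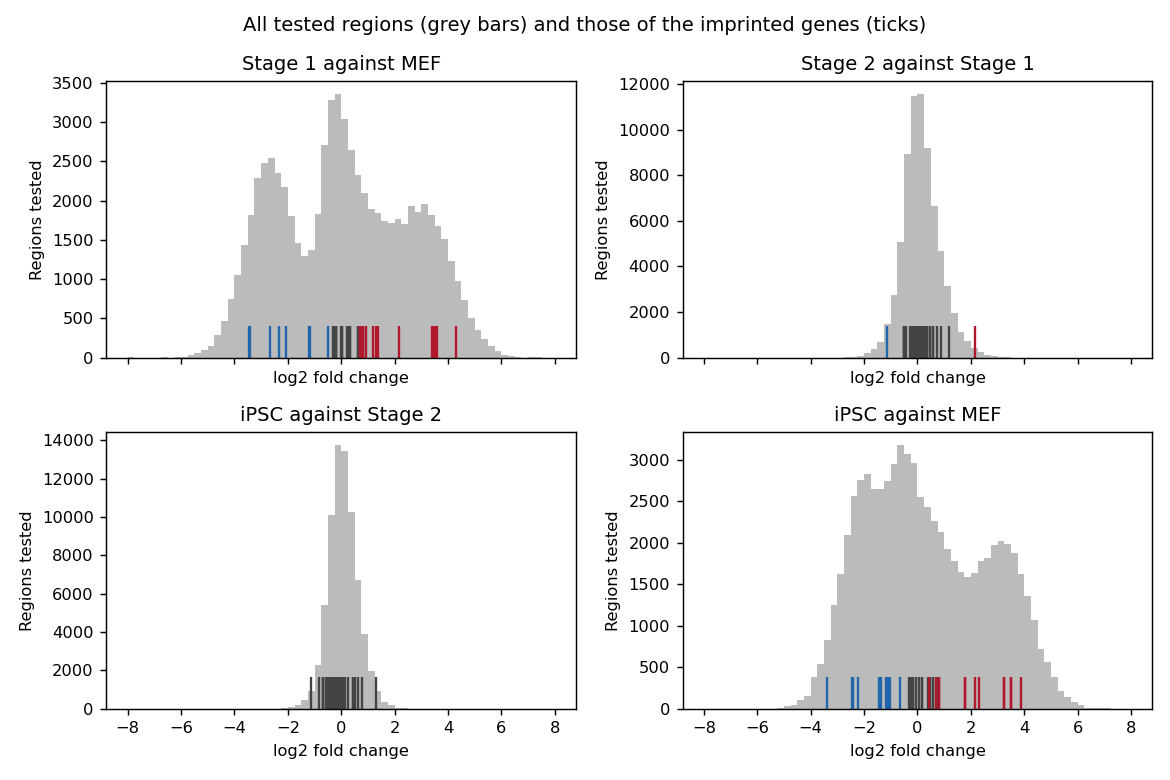
Number of tested regions of the series by log2 fold change, in bins of 0.25, for the 4 comparisons, with ticks at the bottom for the 38 imprinted regions (red higher, blue lower, dark grey neither). The imprinted regions run from -3.47 to 4.30 in Stage 1 against MEF and from -3.37 to 3.89 in iPSC against MEF, inside the wider range of all regions, and in iPSC against Stage 2 every tick is grey.

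The peak lists of the 4 stages record the same regions by presence. Of the 54 regions, 24 (44.4%) were in the MEF list alone, against 56.3% of all regions, and 12 (22.2%) were in all 4 lists, against 11.02%. The 24 MEF regions included 9 of the 10 Igf2r regions and all 4 of Dlk1. None of the 10 tested among them rose, and 7 fell in Stage 1. All 4 regions listed in Stage 1, Stage 2 and iPSC but not in MEF rose: region 1 of Peg10, region 4 of Plagl1 and regions 2 and 3 of Grb10. The lists and the counts come from the same libraries, so these directions are partly built into the choice of the regions. The match is a description and no support for the tests. The share of all regions of the same lists that rose or fell was not counted.

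Over the 12 libraries, the tested genes whose log2 CPM ran most like a member were Guca1a (Pearson r = 0.987) and Itsn2 for Plagl1, Ccnd3 (0.985) and Nsd1 for Cdkn1c, Fgd1 (0.981) for Snrpn, Saa4 (0.977) and C9 for Igf2r, Cars (0.964) and Iglon5 for Peg3 and Ovca2 (0.956) and Gzmd for Dlk1. For Grb10 they were Trmt6 (0.905) and Thsd1, for Peg10 Duoxa2 (0.897) and Eri1, and for Mest Fastkd2 (0.879) and Adcy9. The 12 points share 4 groups and their background, and 1206 genes exceeded 0.9 with Plagl1 but none with Peg10 or Mest. Among the members themselves, Plagl1 and Cdkn1c were closest (0.856).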

How the data were processed

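ATAC-seq libraries of 4 groups of mouse cells, 3 each, were analysed from raw counts per region that the authors deposited with 1 interval list per stage. Per the submitters' processing notes, the build was mm10 and the tools included HTSeq 0.5.4p3 and Bowtie2 2.2.6, with no role given. How peaks were called, whether duplicates were removed and whether read ends were shifted is not given in the sources used here. Groups came from the labels. Nothing says whether replicates were separate cultures or animals, so p-values measure only a spread among samples that may be technical. No 2 replicates agreed within sampling noise (chi-square p at most 0.000376).

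Regions were linked to the gene spans of GRCm38.p6 (protein-coding genes and listed noncoding genes), overlapping or within 10 kb. A region counts for each gene it is linked to, and a gene value is accessibility near the gene, not its expression. Genes (17544 tested) and regions (71069) were fitted with edgeR 4.0.16 (R 4.3.3): TMM scaling, filterByExpr (minimum count 10, minimum total 15), 1 model of the 4 groups and robust quasi-likelihood F tests, two-sided, with Benjamini-Hochberg adjustment over all genes or regions and a threshold of 0.05. Reads in no region or in several stayed out of library sizes, except in whole-library scaling. The scripts were checked on simulated data. Background was the read density outside the regions over 2721778719 bp, the summed largest gene end per chromosome, less the regions.

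Named in the text are all members. Per member these are the region with the highest mean, the region over a listed start, and the regions with the largest rise and fall in Stage 1 and in iPSC against MEF among those past the threshold. Of each gene list they are the 2 largest rises and falls per comparison without overlap, the genes that share a region with a member, and the 2 genes with the highest Pearson r. Other regions were named after their values were seen. A gene that the rule picked is not reported here. The members, lists and tests were chosen with earlier results of these data known. Promoter windows matched 8 of 10 members; Peg10 and Cdkn1c had none. Alternatives were DESeq2 1.42.0 (test and size factors), whole-library scaling, no filter, 2 groups only, a replicate block, each replicate left out, other region links and, chosen after seeing the data, thinned libraries (1034936 reads in regions) and exchanged TMM factors.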

Additional observations from a re-analysis of the deposited data

How the results depend on the processing

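No call of a gene changed with DESeq2 (its test or its size factors), without a filter or with a replicate block. For iPSC against Stage 2, though, the DESeq2 test gave an adjusted p for only 8020 of 17544 genes. Deviations of same-numbered libraries from their group means correlated at -0.088 to 0.107, and not every library correlated best with its own number. With 3 libraries per group, these values cannot tell whether same-numbered libraries share a culture or batch. With the block the number of genes called stayed at 6, 1, 0 and 7 over the comparisons in order, and 1 region instead of 0 passed for iPSC against Stage 2. Whole-library scaling reversed, in Stage 1 against MEF, Cdkn1c (-0.18), Grb10 (-0.90), Mest (-0.83) and Peg10 (-0.43), and in iPSC against MEF, Cdkn1c (-0.77), Mest (-1.40), Peg10 (-1.06), Plagl1 (-0.023) and Snrpn (-0.66). It left 0 genes in Stage 2 against Stage 1, as did regions in the gene span only and regions of no other gene, whereas the fit of 2 groups and thinned libraries each gave 2 (Cdkn1c and Peg3). Leaving out single libraries gave 0 to 1 there. For iPSC against Stage 2, 2 groups only gave 1 gene and the factors of the regions 2, and for regions DESeq2 size factors gave 1 and 2 groups only 2. Thinned libraries called 13 instead of 22 regions in Stage 1 and 14 instead of 23 in iPSC against MEF, with fewer reads and fewer regions tested. Leaving out single libraries gave 21 to 27 regions in Stage 1 and 21 to 28 in iPSC against MEF. Apart from the alternatives' own construction, the cause was not tested. Depth limits single regions most: 16 of the 54 were not tested.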

Other observations

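Of 68 other imprinted genes, 66 had a region and 63 were tested. In Stage 1 against MEF 17 rose and 27 fell (median log2 fold change -0.10), where 33.1% of all tested genes rose and 31.6% fell. In Stage 2 11 rose and 4 fell (7.73% and 8.19% of all genes), in iPSC against Stage 2 3 rose and 1 fell (4.92% and 4.43%), and for iPSC against MEF 21 rose and 23 fell (32% and 33.7%). Under whole-library scaling the counts were 7 and 45, 0 and 2, 0 and 0, and 4 and 49 in the same order, with 0 rises in both later steps. Calcr, the calcitonin receptor gene of the Peg10 cluster, rose most, from 1.94 CPM in MEF to 64.0 in Stage 1 (5.08 on the log2 scale), fell in Stage 2 (-0.91) and stood at 47.9 in iPSC. Zim3, a zinc finger gene beside Peg3, rose from 0.587 CPM in MEF, with background at 1.27, to 6.16 in Stage 1 and 12.9 in iPSC. The largest fall was at Slc22a2, an organic cation transporter gene of the Igf2r cluster. It went from 28.7 to 2.2 CPM (-3.68), below its background of 5.69. In Stage 2 it held 7.32 CPM (1.73), no higher than its background of 7.55, and that step did not pass under whole-library scaling (adjusted p = 0.0945). Cpa4, a carboxypeptidase gene near Mest, fell from 28.2 to 6.91 CPM (-1.98) and rose to 13.9 in Stage 2 (0.95), close to its background of 13.1. Dcn, which encodes the matrix proteoglycan decorin, fell for iPSC against MEF from 19.2 to 6.18 CPM (-1.63), also under its background of 8.88. Asb4 (0.41) and Slc38a4 (0.53) rose and Slc22a3 fell (-0.96) in iPSC against Stage 2. Inpp5f fell in Stage 2 (-0.51).

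Among genes that share a region with a member, Airn fell from 146 CPM in MEF to 45.8 in Stage 1 (-1.67), near its background of 38.8. Snurf rose from 6.46 to 30.2 CPM (2.28), and Zim1 fell for iPSC against MEF (-0.75), as did Usp29 (-0.20). Copg2 passed in no comparison. Their values are partly those of the members.

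Of 18 genes for imprint maintenance and DNA methylation, all tested, 9 rose and 0 fell in Stage 1 against MEF, where 33.1% of all tested genes rose and 31.6% fell, and 9 rose and 1 fell for iPSC against MEF (32% and 33.7%). In Stage 2 against Stage 1 5 rose and 1 fell (7.73% and 8.19%), and in iPSC against Stage 2 1 rose and 1 fell (4.92% and 4.43%). Under whole-library scaling 3 rose and 11 fell in Stage 1 against MEF, 0 rose and 14 fell for iPSC against MEF, and 0 passed in either step between; with the factors of the regions the first and last pairs were 7 and 4, and 6 and 8. Dppa3, which encodes the protein that shields the maternal genome from demethylation in the zygote, rose from 14.1 CPM in MEF to 82.1 in Stage 1 (2.51). Tet2, a methylcytosine dioxygenase gene, rose from 56.5 to 307 CPM (2.43) and fell in Stage 2 (-0.31). Dnmt3l, a cofactor of the de novo methyltransferases, rose in Stage 2 (0.67), as did Tet1 (0.57). Smchd1 rose (0.59) and Trim28 fell (-0.33) in iPSC against Stage 2. Uhrf1, which guides maintenance methylation, was the gene that fell for iPSC against MEF (-0.24). All of these are relative to the median gene. Under whole-library scaling Dppa3 (1.53) and Tet2 (1.45) still rose in Stage 1, and the Stage 2 and iPSC steps named here for Dnmt3l, Tet1, Tet2, Smchd1 and Trim28 did not pass.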
